A study of Mus musculus with 24 samples.

Results

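Voltage-gated sodium channels, voltage-gated calcium channels and epithelial sodium channels were followed in the hippocampus of mice that had received corticosterone overnight. Every probe was taken whose sequence identifier mapped to a gene symbol starting with *Scn* and a digit, *Scnn1*, *Cacna*, *Cacnb* or *Cacng*, which gave 43 genes with 81 probes, of 23787 named genes on the array. A gene was represented by its brightest probe. The genes were divided by symbol into 10 sodium channel alpha subunits, 4 sodium channel beta subunits, 3 epithelial sodium channel subunits, 4 L-type, 3 P/Q-, N- and R-type and 3 T-type calcium channel alpha1 subunits, 4 alpha2delta subunits, 4 calcium channel beta subunits and 8 gamma subunits.

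The animals were 48 male Swiss-Webster mice aged 12 weeks of an outbred stock, and no transgene or deletion is named for any group. From the end of the light phase until the next morning, control animals drank water with 0.45% hydroxypropyl-β-cyclodextrin, and corticosterone-treated animals drank corticosterone at 100 µg/ml in the same vehicle. Hippocampi were collected in hour 1, 5 or 9 of the following light phase, the resting period of mice, from 8 control and 8 corticosterone-treated animals per time point, and RNA of each animal was used without pooling. The study's methods give each treated group a control group of its siblings from several litters, while the labels do not say which animals are siblings or littermates. The comparisons asked how long an effect of corticosterone on gene expression lasts in the resting period. Each of 24 two-color arrays held 1 control animal labelled with Cy3 and 1 corticosterone-treated animal labelled with Cy5. The dyes were not swapped, so a dye preference of a probe enters every contrast of treatments and cannot be told apart from the treatment there. It cancels in comparisons between time points.

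Alpha subunits of voltage-gated sodium channels form the pore that carries the rising phase of the action potential, and their beta subunits are single-pass membrane proteins that set gating and surface density. Calcium channels are built on an alpha1 pore with an intracellular beta and an extracellular alpha2delta subunit. L-type pores couple activity to transcription, P/Q- and N-type pores trigger transmitter release, and T-type pores open at low voltage and feed burst firing. Most *Cacng* genes encode transmembrane AMPA receptor regulatory proteins (TARPs), which escort glutamate receptors to synapses, so these members act on glutamate receptors more than on calcium channels. Glucocorticoids are known to enhance calcium currents of hippocampal CA1 neurons.

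Of the 43 genes, 35 had a signal well above background in all 24 channels of both dyes, and no spot of the brightest probes was saturated. Signal intensity is given here as the normalized intensity of a channel, corrected for background, on a linear scale. The other 8 had a mean signal intensity under 50, the limit used here for a low signal. *Scn7a*, *Scn9a* (a pore of nociceptive sensory neurons) and *Cacna1f* (the L-type pore of the retina) were not well above background in any channel, and *Scn10a*, another sensory neuron pore, was above it in 2 of 24 channels of each dye. A dimmer probe of *Scn10a* (signal intensity 17.6) was called higher in hours 5 and 9 (adjusted p = 0.044 and 0.003). *Scnn1g*, *Cacna2d4*, *Cacng1* and *Scnn1b* were above background in 0, 1, 1 and 4 of the Cy3 channels and in 2, 18, 19 and 22 of the Cy5 channels. Because the dyes are bound to the treatments, this difference in detection is one of dye as well as of treatment, and no fold changes are given for these genes except for *Scnn1b*, which displayed a significant difference. All 5 markers of neurons and all 5 of interneurons chosen for the check of the tissue had a signal intensity of 50 or more, whereas 1 of 5 markers of sensory ganglia and 3 of 6 of striated muscle did.

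The arrays lay on 3 slides, with 2, 2 and 4 arrays of hours 1, 5 and 9 on slide 1 and 3, 3 and 2 on slides 2 and 3. Between 57.9 and 64.2% of the spots of an array exceeded background clearly in Cy3 and between 61 and 70.4% in Cy5. The median distance of a channel from the median of its group, over all probes, ranged from 0.0568 to 0.188 on the log2 scale (median 0.0855). The highest values belonged to both channels of 1 array of hour 5 (replicate 7; 0.188 and 0.182) and to the corticosterone channel of 1 array of hour 1 (replicate 8; 0.177), all on slide 3. Calls of channel genes that these arrays changed are given with and without them. In the treated animal of replicate 8 in hour 1, the summed signal intensity of 4 thalamus markers (*Tcf7l2*, *Prkcd*, *Lef1* and *Rora*) was 10300, beside 5450 to 6270 in the other treated animals and 5540 to 6390 in the control animals of that hour.

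Corticosterone-treated animals displayed significant differences from control animals (adjusted p below 0.05, separate channel test of limma, adjusted over 56605 probes) in 11 of the 43 genes during hour 1, in 14 during hour 5 and in 9 during hour 9. This was 25.6, 32.6 and 20.9% of the genes, beside 17.5, 18.1 and 14% of all probes. Higher expression after corticosterone was found for 7, 10 and 7 genes (16.3, 23.3 and 16.3%; all probes 8.85, 8.62 and 7.01%), and lower expression for 4, 4 and 2 genes (9.3, 9.3 and 4.65%; all probes 8.67, 9.47 and 6.97%). The share of genes with lower expression was thus near that of all probes or under it, and the share with higher expression was above it. Among the 32033 probes at a signal intensity of at least 50, 20.1, 20.1 and 14% were significant, against 11, 13 and 9 of the 35 channel genes above that limit. Without the array of replicate 8, hour 1 had 16 significant genes in place of 11. *Cacna2d1* was lost, and *Cacna1d*, *Cacna2d3*, *Cacnb1*, *Cacng3*, *Cacng6* and *Scn3a* were gained. Without the array of replicate 7, hour 5 had 11 in place of 14, as *Cacna2d3*, *Cacng6*, *Scn3a* and *Scnn1b* were lost and *Cacna1h* was gained. Calls of other hours moved as well. Without replicate 8 of hour 1, hour 9 had 11 genes in place of 9, with *Cacna1g* and *Cacna2d3* gained. Without replicate 7 of hour 5, hour 1 had 13 in place of 11, with *Cacna1h* and *Scn3a* gained. Among these 35 genes the median log2 fold change was 0.097, 0.077 and 0.056 in the 3 hours, beside -0.003, 0 and -0.001 for all probes above the limit, and the absolute values of the significant ones lay between 0.11 and 0.55.

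**Figure D1:**
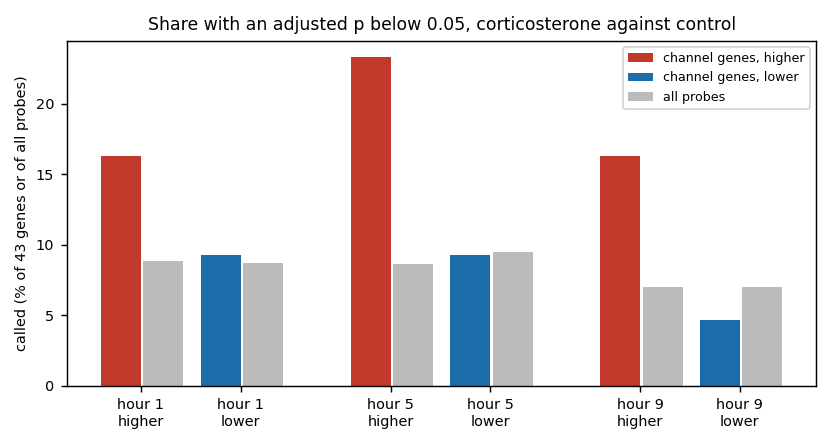
Share of the 43 channel genes and of all 56605 probes with an adjusted p below 0.05 for corticosterone-treated against control animals, by hour and direction (colored bars, channel genes; grey bars, all probes; y axis in percent). Higher expression after corticosterone was found in 16.3, 23.3 and 16.3% of the channel genes and in 8.85, 8.62 and 7.01% of all probes.

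In total, 17 of the 43 genes displayed a significant difference during at least 1 hour, and each kept its direction in the hours in which it was significant. Differences during all 3 hours were found for 7 genes. *Scn3b*, *Scn2a*, *Scn8a*, *Cacna2d2* and *Cacng7* were higher, and *Scn1a* and *Cacng2* were lower. A paired test, on the log ratios of the animals that shared an array, gave 12, 12 and 8 genes in hours 1, 5 and 9. It lost *Cacna2d1* in hour 1 (adjusted p = 0.0589, limma), *Scn2a*, *Cacng6* and *Scnn1b* in hour 5 (0.0553, 0.0569 and 0.0688) and *Scn2a*, *Cacng6* and *Scn8a* in hour 9 (0.0525, 0.0602 and 0.0644), and it added *Cacna1h* in all hours and *Cacnb2* in hour 9. With their brightest probes, the remaining 26 genes did not pass the threshold in any hour, in the separate channel test, among them all P/Q-, N- and R-type pores and all calcium channel beta subunits. The hippocampus was measured as bulk tissue, so fewer cells of a type and less RNA per cell cannot be told apart.

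**Figure D2:**
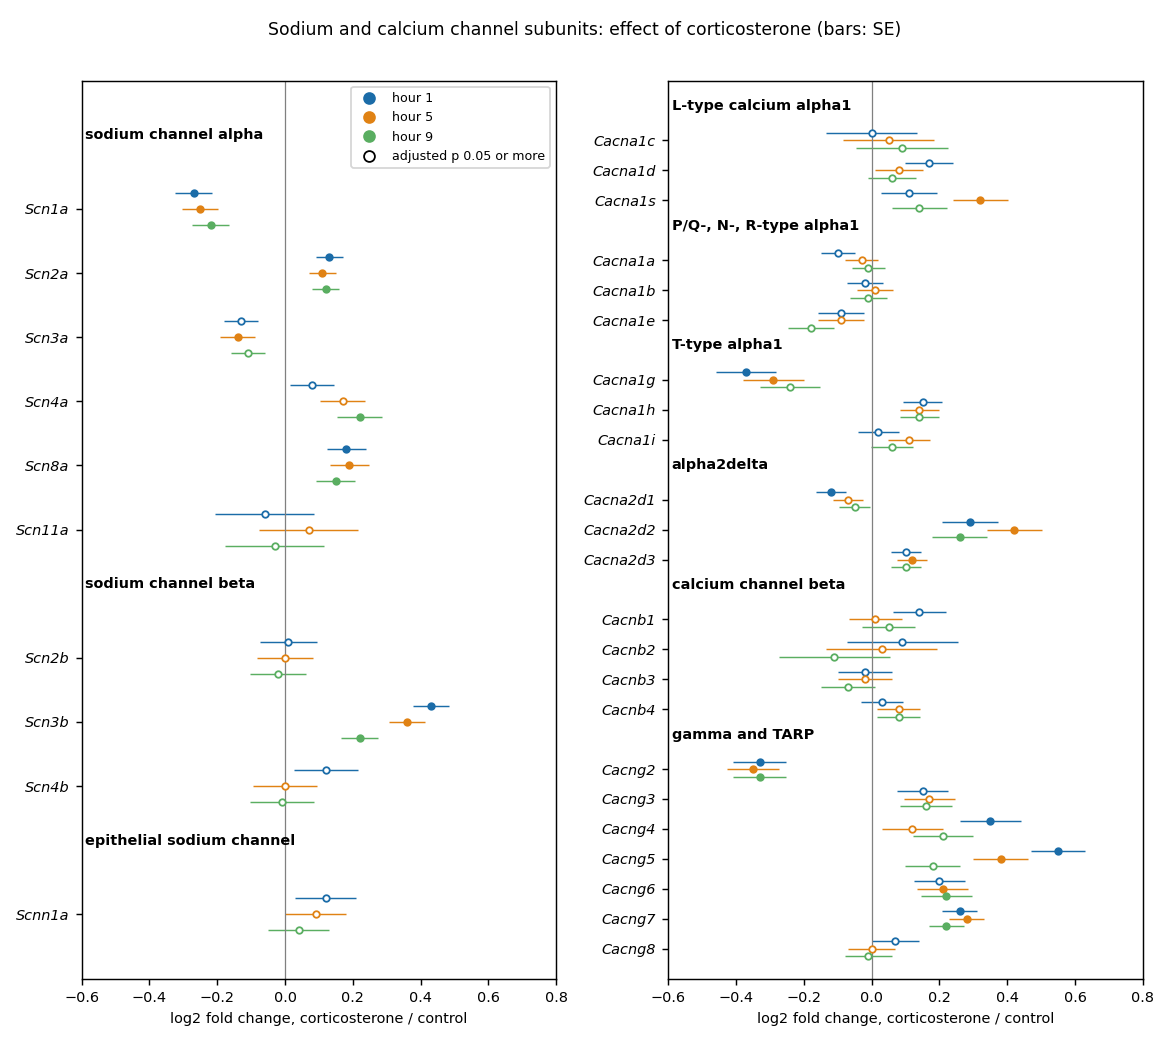
Log2 fold change of corticosterone-treated over control animals (x axis) with its standard error for 33 channel genes with a signal intensity of 50 or more, at hours 1, 5 and 9 (n = 8 animals per group). Of the 35 genes above that limit, those whose values are not reported here are not drawn, and none of them passed the threshold. Filled points have an adjusted p below 0.05; the largest are *Cacng5* (0.55 in hour 1), *Scn3b* (0.43 in hour 1) and *Cacna2d2* (0.42 in hour 5).

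*Scn3b* encodes the sodium channel beta3 subunit. In hour 1 its signal intensity ranged from 17000 to 22700 (median 18400) in control animals and from 23500 to 28300 (median 25200) in corticosterone-treated animals. All treated animals were above all control animals. In hour 5 the ranges were 16800 to 21800 (median 18900) and 19700 to 27800 (median 23900), and in hour 9 they were 16300 to 20500 (median 18600) and 20200 to 24900 (median 21400). The groups overlapped at their edges in these hours, and the treated animal was above the control animal on 8 of 8 arrays in each hour. The increase was 34.7, 28.3 and 16.8% in hours 1, 5 and 9, with log2 fold changes of 0.43, 0.36 and 0.22 (standard error 0.054, adjusted p = 1.8e-08, 1.1e-06 and 0.0019 in the separate channel test). Leaving out slide 1, which held 4 of the 8 arrays of hour 9, ended the significance in that hour (0.21, adjusted p = 0.12 by limma). A dimmer probe of *Scn3b* (mean signal intensity 279) was higher in hour 1 only (0.27, adjusted p = 0.0013), with 0.13 and -0.02 in hours 5 and 9 (adjusted p = 0.12 and 0.89). With the mean over both probes, the log2 fold change of hour 9 was 0.1 and did not pass the threshold.

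*Scn2b* and *Scn4b*, whose products are linked to the pore by a disulfide bond, did not pass the threshold in any hour. Their log2 fold changes were 0.01 and 0.12 in hour 1 and -0.02 and -0.01 in hour 9. The product of *Scn3b* binds the pore without a covalent bond.

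**Figure D3:**
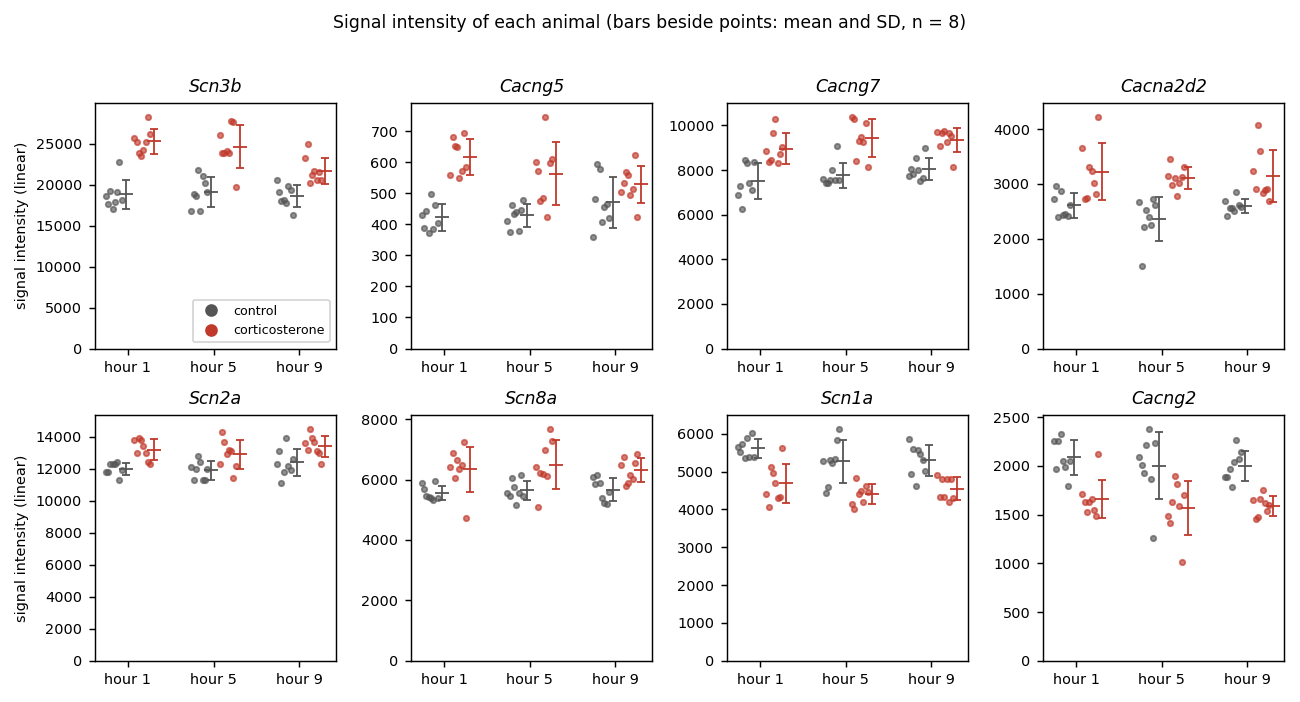
Signal intensity (linear y axis, from 0) of each animal for 8 channel genes at hours 1, 5 and 9, control animals in grey and corticosterone-treated animals in red; the bars beside the points are mean and SD of 8 animals. *Scn3b* and *Cacng5* show no overlap of the groups in hour 1, *Cacna2d2* none in hour 5 and *Cacng2* none in hour 9.

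Of the 10 sodium channel alpha subunits, 7 had a signal intensity of 50 or more. With their brightest probes, the 4 pores of the mature or developing brain split in direction. With the mean over all probes of a gene, none of the 4 passed the threshold in any hour. *Scn2a* and *Scn8a*, which encode Nav1.2 and Nav1.6 of excitatory neurons and axon initial segments, were higher after corticosterone, whereas *Scn1a*, which encodes Nav1.1 and is prominent in fast-spiking interneurons, was lower, and *Scn3a*, the Nav1.3 pore of the embryonic brain, was lower in hour 5. *Scn1a*, *Scn2a* and *Scn3a* lie in one cluster on chromosome 2 with *Scn7a* and *Scn9a*, and *Scn8a* lies on chromosome 15.

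For *Scn1a*, control animals ranged from 5360 to 6030 (median 5580), 4430 to 6130 (median 5300) and 4620 to 5870 (median 5380) in hours 1, 5 and 9. Corticosterone-treated animals ranged from 4070 to 5620 (median 4550), 4020 to 4820 (median 4440) and 4200 to 4910 (median 4560). The groups overlapped in each hour, and the treated animal was above the control animal on 1, 1 and 0 of 8 arrays. The changes were -16.8, -16.2 and -14% (log2 fold changes -0.27, -0.25 and -0.22, standard error 0.0534, adjusted p = 0.00014, 0.00026 and 0.0023, separate channel test of limma). Without slide 3 the difference of hour 5 was -0.18 (adjusted p = 0.0637). The highest treated animal of *Scn1a* in hour 1, 5620, was that of replicate 8, and without its array the log2 fold change was -0.31 (adjusted p = 1.13e-05).

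The increases of *Scn2a* and *Scn8a* were smaller. *Scn2a* rose by 9.8, 8.23 and 8.7%, from 11300 to 12400 (median 12100) in control animals to 12300 to 13900 (median 13200) in treated animals in hour 1, from 11300 to 12800 (median 12000) to 11400 to 14300 (median 13000) in hour 5, and from 11100 to 13900 (median 12300) to 12300 to 14500 (median 13400) in hour 9. The groups overlapped in each hour, by the least in hour 1, and the log2 fold changes were 0.13, 0.11 and 0.12 (standard error 0.0401, adjusted p = 0.0075, 0.024 and 0.021 by limma). With the authors' log2 ratios they were 0.08, 0.07 and 0.07 and did not pass the threshold (adjusted p = 0.144, 0.222 and 0.277), nor did they without slide 2 in hour 1 (adjusted p = 0.125), without any of the slides in hour 5 (0.0750 to 0.143) and without slide 1 in hour 9 (0.638). *Scn8a* rose by 13.4, 14.4 and 11.3%, from 5320 to 5950 (median 5430) to 4710 to 7230 (median 6450) in hour 1, from 5170 to 6150 (median 5550) to 5100 to 7680 (median 6310) in hour 5, and from 5190 to 6140 (median 5720) to 5780 to 6840 (median 6310) in hour 9. Single treated animals lay below all control animals in hours 1 and 5. The adjusted p values of 0.016, 0.0093 and 0.048 (log2 fold changes 0.18, 0.19 and 0.15, SE 0.0574) were 0.237, 0.0995 and 0.24 without slide 2, 0.0572 without slide 1 in hour 1, and 0.143 and 0.235 without slide 3 in hours 5 and 9. The difference of *Scn8a* in hour 9 was significant under 7 of 18 alternatives and was lost under 11, among them slide as a block (adjusted p = 0.0568) and the paired test (0.0644). In hour 1 the treated animal of replicate 8 was the one at 4710, and without its array the log2 fold change was 0.23 (adjusted p = 0.000749).

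*Scn3a* was lower in hour 5 (2180 to 3060, median 2510, in control animals and 2060 to 2520, median 2250, in treated animals; log2 fold change -0.14, standard error 0.051, adjusted p = 0.029) and had -0.13 and -0.11 in hours 1 and 9 (adjusted p = 0.061 and 0.12). The value of hour 5 was lost when slide 1, 2 or 3 was left out (adjusted p = 0.159, 0.0603 and 0.157) and without the array of replicate 7 (0.0758). *Scn4a*, the skeletal muscle pore, was measured at a signal intensity of 120 and was higher in hour 9, from 95.2 to 129 (median 115) to 114 to 154 (median 127). Its log2 fold change was 0.22 (standard error 0.0658, adjusted p = 0.015), with 0.107 and 0.111 as adjusted p without slide 1 and without slide 3. None of the 6 genes of the striated muscle list passed the threshold in any hour, and their summed signal intensity ranged from 739 to 1170 in control animals and from 800 to 1070 in treated animals in hour 9. *Scn11a*, a sensory neuron pore, stayed within 0.07 of 0.

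The probes of a single sodium channel gene did not always move together. Of the 43 genes, 21 had several probes, and in 3 of these, *Scn1a*, *Scn2a* and *Scn8a*, probes were significant in both directions. For *Scn8a*, the second brightest probe (signal intensity 1240) had larger increases than the brightest one, with log2 fold changes of 0.39, 0.55 and 0.41 (adjusted p = 0.00025, 9.9e-07 and 0.00021, limma), while a probe with a signal intensity of 372 was lower, at -0.18, -0.25 and -0.24 (adjusted p = 0.053, 0.0059 and 0.0093). For *Scn2a*, probes with signal intensities of 583 and 232 had -0.19, -0.24 and -0.17 and -0.21, -0.28 and -0.25, where the second was significant in all hours (adjusted p = 0.016, 0.0015 and 0.0052) and the first in hour 5 (0.036). A dimmer *Scn2a* probe (134) had 0.01, 0.15 and -0.07 and did not pass the threshold. For *Scn1a*, the second brightest probe (1900) had 0.09, 0.05 and -0.03 and another (274) had -0.05, -0.08 and -0.04, neither of which passed the threshold, and a probe with a signal intensity of 28.2, well above background in 0 of 24 Cy3 channels, was called higher in hour 5 (adjusted p = 0.041). With the mean over all probes of a gene in place of the brightest probe, *Scn2a* had -0.06, -0.06 and -0.09 and *Scn1a* had 0.0013, 0.02 and -0.03, none of them significant. *Scn8a* had 0.10, 0.09 and 0.05 and did not pass the threshold in any hour either (adjusted p = 0.079, 0.061 and 0.296). A significant decrease of *Scn1a* and a significant increase of *Scn2a* were thus each found with the brightest probe and with no other probe of the gene. Which transcripts each probe detects was not tested, as probe sequences were not used here.

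**Figure D4:**
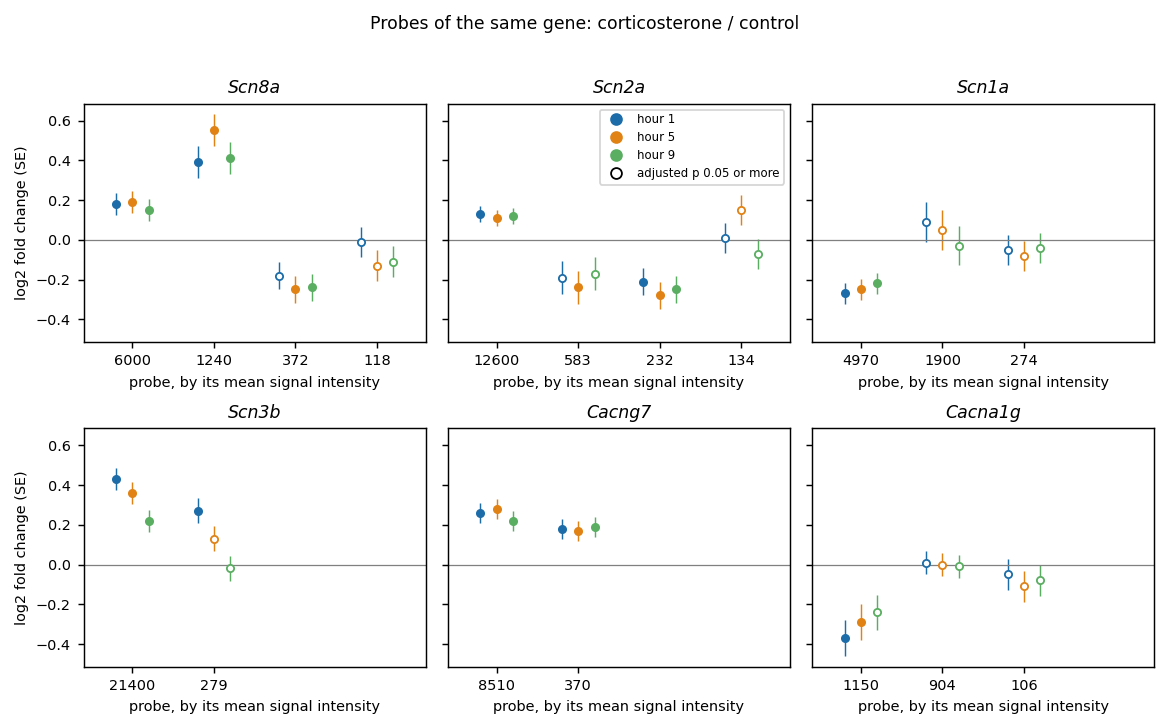
Log2 fold change with standard error (y axis) of each probe at a signal intensity of at least 50 for 6 channel genes, ordered on the x axis by mean signal intensity, at hours 1, 5 and 9; filled points have an adjusted p below 0.05. Both probes of *Cacng7* are higher in all hours, whereas probes of *Scn8a* and *Scn2a* fall on both sides of 0 and the decrease of *Cacna1g* is seen with its brightest probe.

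Of the epithelial sodium channel subunits, which carry amiloride-sensitive sodium uptake in kidney and lung, *Scnn1a* was measured at a signal intensity of 1240 and had log2 fold changes of 0.12, 0.09 and 0.04, none significant. *Scnn1b* was called higher in hour 5 (adjusted p = 0.032), with signal intensities of 16.9 to 41.1 (median 33.1) in control animals and 28.6 to 51 (median 39) in treated animals. Its signal cleared background in 1 of the 8 control animals of this hour and in 7 of the 8 treated ones. The groups overlapped, the log2 fold change of 0.37 (SE 0.119) rests on signals close to background, and the adjusted p was 0.101 without background correction, 0.171 without slide 1, 0.349 without slide 3 and 0.0566 without the array of replicate 7.

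Among the calcium channel pores, *Cacna1g*, which encodes the T-type pore Cav3.1, displayed the largest significant difference. It ranged from 1020 to 1600 (median 1390) in control animals and from 923 to 1530 (median 971) in treated animals in hour 1, and from 1060 to 1520 (median 1330) and 863 to 1320 (median 1080) in hour 5. In hour 1 the treated animal of replicate 8 was at 1530 and the other treated animals were at 923 to 1030. This was the animal with the high thalamus markers, and without its array the log2 fold change of hour 1 was -0.50 (adjusted p = 2.35e-06). The changes were -22.5 and -18.3% (log2 fold changes -0.37 and -0.29, standard error 0.0889, adjusted p = 0.0018 and 0.014, limma). In hour 9 the ranges were 972 to 1300 (median 1130) and 743 to 1120 (median 998), treated animals were lower on 8 of 8 arrays, and the log2 fold change of -0.24 had an adjusted p of 0.052. Without slide 1 the adjusted p was 0.0638 in hour 1 and 0.128 in hour 5, and without slide 3 it was 0.0727 in hour 5. The other probes of *Cacna1g*, with signal intensities of 904 and 106, had values between -0.11 and 0.01 and did not pass the threshold. With the mean over all probes of *Cacna1g*, the log2 fold change was -0.14 in hour 1 and in hour 5, and neither passed.

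The other T-type pores did not pass the threshold with their brightest probes. *Cacna1h* (Cav3.2) had log2 fold changes of 0.15, 0.14 and 0.14 with its brightest probe (adjusted p = 0.058, 0.063 and 0.094), and its probes with signal intensities of 58.1 and 49.8 were higher in hour 1 (0.25 with both; adjusted p = 0.0052 and 0.03) and hour 5 (0.37 and 0.25; adjusted p = 8.2e-05 and 0.024). *Cacna1i* (Cav3.3) had 0.02, 0.11 and 0.06.

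L-type pores displayed 1 significant difference. *Cacna1s*, the pore of skeletal muscle, was measured at a signal intensity of 111 and was higher in hour 5, with 82.4 to 124 (median 101) in control animals and 112 to 141 (median 130) in treated animals (log2 fold change 0.32, standard error 0.0814, adjusted p = 0.0033, limma), which was 0.23 (adjusted p = 0.102) without slide 1. Its log2 fold changes in hours 1 and 9 were 0.11 and 0.14. The main neuronal L-type pores did not pass the threshold with their brightest probes. *Cacna1d* (Cav1.3) had 0.17, 0.08 and 0.06 (adjusted p = 0.085 in hour 1). *Cacna1c* (Cav1.2) had 0.00, 0.05 and 0.09. A dim probe of *Cacna1c* (signal intensity 32, above background in 0 of 24 Cy3 and 20 of 24 Cy5 channels) was called higher in hours 1 and 5 (0.53 and 0.43, adjusted p = 0.00037 and 0.0018), and its other probes did not pass. On the array of replicate 7 in hour 5, both animals of *Cacna1c* were low, at 2260 and 2450, where all others of that hour were at 6290 or more.

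The P/Q-, N- and R-type pores did not pass the threshold in any hour. *Cacna1a* had log2 fold changes of -0.10, -0.03 and -0.01, *Cacna1b* of -0.02, 0.01 and -0.01, and *Cacna1e* of -0.09, -0.09 and -0.18 (adjusted p = 0.055 in hour 9). *Cacna1e* passed in hour 9 without background correction and with the processed signals of the scanner. With standard errors of 0.0493 for *Cacna1a*, the 95% interval of hour 5 reached from -0.13 to 0.07.

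Alpha2delta subunits, which raise the surface density of calcium channels and are the binding sites of gabapentin (*Cacna2d1*, *Cacna2d2*), also split in direction. *Cacna2d2* ranged from 2390 to 2960 (median 2540) in control animals and from 2720 to 4230 (median 3120) in treated animals in hour 1, from 1510 to 2730 (median 2460) and 2780 to 3450 (median 3120) in hour 5, and from 2410 to 2850 (median 2570) and 2690 to 4070 (median 2910) in hour 9. In hour 5 the groups did not overlap. The highest treated animal of *Cacna2d2* in hour 1 was again that of replicate 8, and without its array the log2 fold change was 0.23 (adjusted p = 0.0332). The increase was 22.3, 33.4 and 19.9% (log2 fold changes 0.29, 0.42 and 0.26, standard error 0.0813, adjusted p = 0.0068, 0.00014 and 0.018, limma). The values of hours 1 and 9 did not pass without single slides: without slide 2 or 3 the adjusted p of hour 1 was 0.092 and 0.184, and without slide 1 or 2 that of hour 9 was 0.487 and 0.051. A second probe of *Cacna2d2* (signal intensity 74.5) was higher in hour 5 (0.39, adjusted p = 0.00033), with 0.11 and 0.15 in hours 1 and 9 (adjusted p = 0.37 and 0.22). Its dimmest probe (30.5), close to background, had -0.08, -0.01 and -0.29 (adjusted p = 0.68, 0.82 and 0.053). With the mean over all probes of *Cacna2d2* the values were 0.11, 0.27 and 0.04, and that of hour 9 did not pass (adjusted p = 0.16).

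*Cacna2d1* was lower in hour 1, from 10300 to 12100 (median 11000) to 8800 to 10900 (median 10400), a change of -7.9% (adjusted p = 0.041) that did not hold without the array of replicate 8 (-0.07, adjusted p = 0.235) or without slide 2 or 3 (0.162 and 0.469). Another probe of it (470) had -0.22 and -0.20 in hours 5 and 9 (adjusted p = 0.019 and 0.037). *Cacna2d3* was higher by 8.48% in hour 5 (adjusted p = 0.038), with 4860 to 6210 (median 5670) in control animals and 5620 to 6710 (median 5850) in treated animals, and had an adjusted p of 0.0591 without the array of replicate 7 and of 0.252, 0.0908 and 0.0625 without slides 1, 2 and 3 in turn.

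None of the 4 calcium channel beta subunits, which chaperone the pore to the membrane, displayed significant differences with the brightest probe in the separate channel test. *Cacnb1*, *Cacnb3* and *Cacnb4* had log2 fold changes between -0.07 and 0.14 in all hours. *Cacnb2* ranged from 1650 to 2300 in all but 4 animals, while both animals of 1 array of hour 1 (replicate 6; 623 and 640) and of 1 array of hour 5 (replicate 7; 798 and 791) lay far below. On single arrays the log2 ratio of *Cacnb2* was above 0 on 8 of 8 arrays in hour 1 (0.02 to 0.19) and below 0 on 8 of 8 in hour 9 (-0.24 to -0.04). The change of -0.20 between these hours had an adjusted p of 0.99 in the separate channel test (SE 0.232) and of 0.0343 in the test on log ratios. A second probe of *Cacnb2* (signal intensity 156) was lower in hour 5 (-0.36, adjusted p = 0.043).

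Of the 8 gamma subunits, 4 displayed significant differences in hour 1, 4 in hour 5 and 3 in hour 9 (all probes 17.5, 18.1 and 14%). *Cacng5*, an atypical TARP that also modifies AMPA receptors, displayed the largest difference of the channel genes that passed the threshold. Its signal intensity in hour 1 was 372 to 499 (median 418) in control animals and 551 to 695 (median 618) in treated animals, without overlap. In hour 5 it was 376 to 479 (median 436) and 423 to 748 (median 585), and in hour 9 it was 361 to 596 (median 461) and 425 to 624 (median 524), where the ranges largely coincided. The increase of 46.1 and 30.2% in hours 1 and 5 (log2 fold changes 0.55 and 0.38, standard error 0.0805, adjusted p = 1.2e-06 and 0.00041, limma) was followed by 13% in hour 9 (0.18, adjusted p = 0.13).

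*Cacng7*, another atypical TARP, was higher in all hours. Control animals ranged from 6270 to 8430 (median 7370), 7410 to 9060 (median 7560) and 7530 to 9010 (median 7920) in hours 1, 5 and 9, and treated animals from 8300 to 10300 (median 8790), 8150 to 10400 (median 9410) and 8130 to 9760 (median 9600). Treated animals were above control animals on 8, 8 and 7 of 8 arrays. The log2 fold changes were 0.26, 0.28 and 0.22 (standard error 0.0514, adjusted p = 0.00013, 4.3e-05 and 0.0016, limma), and a second probe gave 0.18, 0.17 and 0.19 (adjusted p = 0.0064, 0.009 and 0.0066). Without slide 1 the value of hour 9 was 0.18 (adjusted p = 0.156).

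*Cacng2*, which encodes stargazin, the founding TARP, fell in all hours. Control animals ranged from 1790 to 2330 (median 2050), 1260 to 2380 (median 2050) and 1780 to 2260 (median 2000), and treated animals from 1490 to 2120 (median 1630), 1010 to 1900 (median 1610) and 1450 to 1750 (median 1610). The groups did not overlap in hour 9, and the lowest values of both groups in hour 5, 1260 and 1010, belonged to the same array (replicate 7). In hour 1 the highest treated animal, 2120, was that of replicate 8, and without its array the log2 fold change was -0.38 (adjusted p = 0.000296). The changes were -20.3, -21.5 and -20.5% (log2 fold changes -0.33, -0.35 and -0.33, standard error 0.0779, adjusted p = 0.0013, 0.00067 and 0.0018, limma). Without slide 2 the value of hour 1 was -0.25 (adjusted p = 0.101), and without slide 1 that of hour 9 was -0.39 (adjusted p = 0.0609).

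*Cacng4*, a TARP found in glia and in the developing brain, was higher in hour 1, from 61.3 to 87.4 (median 75.8) to 75.9 to 113 (median 99.5). Treated animals were higher on 8 of 8 arrays (log2 fold change 0.35, standard error 0.0891, adjusted p = 0.0051), with 0.28 (adjusted p = 0.106) without slide 3. *Cacng6*, a gamma subunit that is no TARP, was higher in hour 5 (100 to 136, median 129, against 131 to 173, median 141; adjusted p = 0.039) and hour 9 (99.5 to 135, median 121, against 126 to 167, median 134; adjusted p = 0.04), with a log2 fold change of 0.20 in hour 1 (adjusted p = 0.056). Both calls were lost when slide 1, 2 or 3 was left out (adjusted p between 0.0946 and 0.223), and that of hour 5 without the array of replicate 7 (0.0948). *Cacng3*, a TARP of forebrain pyramidal neurons, had 0.15, 0.17 and 0.16 (adjusted p = 0.16, 0.099 and 0.14), and *Cacng8*, the TARP most studied in hippocampal AMPA receptors, had 0.07, 0.00 and -0.01. *Cacng6*, *Cacng7* and *Cacng8* lie close together on chromosome 7 and *Cacng1*, *Cacng4* and *Cacng5* on chromosome 11, and in both groups neighbours differed in whether they passed the threshold.

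Between time points the effect of corticosterone on these genes did not pass the threshold for a change. The test of the change gave 0 of 43 genes between hours 1 and 5, 0 between hours 1 and 9 and 0 between hours 5 and 9, with 1, 2 and 1 genes at an unadjusted p below 0.05, beside 0.0389, 0.827 and 0.0830% of all probes that were significant. In the paired test on log ratios 1 gene passed from hour 1 to hour 9, *Cacnb2* (-0.20, adjusted p = 0.0343), as it did with the authors' log2 ratios (-0.19, adjusted p = 0.0438), and its ratios had 1 sign on 8 of 8 arrays in each of these hours. In the separate channel test the lowest p values belonged to *Cacng5*, whose log2 fold change moved by -0.37 from hour 1 to hour 9 (SE 0.114, unadjusted p = 0.0014, adjusted p = 0.12, limma), and to *Scn3b*, with -0.21 (standard error 0.0763, adjusted p = 0.29). That the increase of *Cacng5* was significant in hours 1 and 5 and not in hour 9 is therefore not shown to be a difference between hours. The mean over both probes of *Scn3b* gave -0.25 with an adjusted p of 0.0497.

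In control animals, 0 of the 43 genes changed between any hours (3, 4 and 1 genes at an unadjusted p below 0.05 from hour 1 to 5, 1 to 9 and 5 to 9; all probes 0.00530, 0.537 and 0.0336%). In corticosterone-treated animals, 0, 2 and 0 genes changed (3, 8 and 2 at an unadjusted p below 0.05; all probes 0.546, 4.02 and 0.661%). *Scn3b* fell from hour 1 to hour 9, from a median of 25200 to 21400 (log2 fold change -0.22, standard error 0.0629, adjusted p = 0.023), and its second probe fell as well (-0.29, adjusted p = 0.0065). *Cacng3* rose from a median of 709 (454 to 740) to 810 (749 to 946), without overlap (0.31, standard error 0.0887, adjusted p = 0.026). Control animals gave 0.30 for *Cacng3* in the same comparison (535 to 664, median 599, to 624 to 861, median 765; adjusted p = 0.11), close to the value of treated animals. The lowest treated animal of *Cacng3*, 454 in hour 1, was on the array of replicate 8, and without it the rise was 0.23 (adjusted p = 0.0962), while *Scn3b* kept an adjusted p of 0.0489. Neither gene passed when slide 1, 2 or 3 was left out (adjusted p between 0.0543 and 0.328).

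The glucocorticoid receptor binds DNA as a dimer at a palindromic response element, or as a monomer at a single site of it. Promoters were searched for both in the 250 bases before the start of each transcript (RefSeq, GRCm38.p6), on either strand. Entries were held for 32 of the 43 genes, with 43 promoters. The palindrome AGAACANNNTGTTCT was found in 3 of 32851 promoters (0.00913%) and in 0 of the channel genes' promoters. The single site TGTTCT was found in 5284 promoters (16.1%), and in 7 of the 43 promoters of channel genes, which is 1 each in *Cacna1c*, *Cacna1d*, *Cacnb2*, *Scn2a*, *Scn4b*, *Scn8a* and *Scn9a*. The share of channel gene promoters with the single site was near that of all promoters. Of these genes, *Scn2a* and *Scn8a* were among those higher in all hours, with their brightest probes. The others did not pass the threshold in any hour with theirs. A further promoter entry of *Scn2a* and of *Scn8a*, upstream of the one printed, held 0 matches. The promoters of *Scn2a* and *Scn8a* that hold the match are given with those of *Cacng7* and *Cacng2*. *Cacng7* rose and *Cacng2* fell in all hours, and neither promoter holds a match. Sequences run 5′ to 3′ on the strand of the gene, with the match in capitals. It lies 41 to 36 bases before the start for *Scn2a* and 11 to 6 bases before it for *Scn8a*.
Scn2a, chr2:65668436-65668685 (plus strand): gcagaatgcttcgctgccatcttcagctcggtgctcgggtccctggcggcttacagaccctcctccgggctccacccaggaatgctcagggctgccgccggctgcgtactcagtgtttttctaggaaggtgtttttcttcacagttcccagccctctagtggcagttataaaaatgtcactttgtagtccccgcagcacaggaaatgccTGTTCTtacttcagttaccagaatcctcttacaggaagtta
Scn8a, chr15:100936021-100936270 (plus strand): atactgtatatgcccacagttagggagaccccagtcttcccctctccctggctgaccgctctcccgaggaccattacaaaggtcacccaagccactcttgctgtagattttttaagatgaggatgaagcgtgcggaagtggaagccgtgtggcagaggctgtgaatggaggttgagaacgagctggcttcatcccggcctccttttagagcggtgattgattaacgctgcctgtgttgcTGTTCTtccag
Cacng7, chr7:3332575-3332824 (plus strand): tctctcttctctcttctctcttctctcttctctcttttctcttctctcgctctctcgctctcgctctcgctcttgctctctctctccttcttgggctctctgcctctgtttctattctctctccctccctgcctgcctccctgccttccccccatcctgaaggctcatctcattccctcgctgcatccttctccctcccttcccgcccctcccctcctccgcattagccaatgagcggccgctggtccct
Cacng2, chr15:78119281-78119530 (minus strand): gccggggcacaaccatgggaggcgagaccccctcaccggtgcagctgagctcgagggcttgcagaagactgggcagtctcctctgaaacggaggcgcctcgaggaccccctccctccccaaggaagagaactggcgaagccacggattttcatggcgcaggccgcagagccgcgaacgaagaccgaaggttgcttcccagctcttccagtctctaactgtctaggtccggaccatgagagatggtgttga
These windows describe letters alone; receptor binding was not measured, and elements further from the start were not searched.

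Proteins that bind, anchor or regulate these channels were followed as a list of 58 genes, all with a probe. Of these, 14 were higher and 8 lower in hour 1, 11 and 7 in hour 5 and 9 and 7 in hour 9, with median log2 fold changes of 0.05, 0.04 and 0.01. Higher genes made up 24.1, 19 and 15.5% of the list (all probes 8.85, 8.62 and 7.01%), and lower genes 13.8, 12.1 and 12.1% (all probes 8.67, 9.47 and 6.97%). For AMPA receptor auxiliary proteins beside the TARPs, *Cnih2* (cornichon 2) was higher in all hours (0.34, 0.36 and 0.31; adjusted p = 1.8e-06, 7.7e-07 and 2.7e-05, limma), and *Shisa7* was higher in hours 1 and 5 (0.34 and 0.21; adjusted p = 3.9e-06 and 0.0027). Of the scaffold of the axon initial segment, *Sptbn4* (beta IV spectrin) was higher in all hours (0.14, 0.24 and 0.24), and *Rims1*, which tethers calcium channels at release sites, was too (0.17, 0.25 and 0.25).

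Among the genes lower in all hours were *Fgf11*, a member of the FGF family that binds sodium channels inside the cell (-0.53, -0.42 and -0.27; adjusted p = 4e-08, 4.8e-06 and 0.003), *Nalcn*, the sodium leak channel (-0.17, -0.31 and -0.17), and *Tspan13*, a tetraspanin that interacts with calcium channels (-0.23, -0.22 and -0.16). The effect of corticosterone changed from hour 1 to hour 9 in 2 of the 58 genes (all probes 0.827%), *Sgk1* (0.71 in hour 1, change -0.83, adjusted p = 1.5e-07, limma) and *Nedd4l* (0.21 in hour 1, change -0.31, adjusted p = 0.0017). These encode a kinase that raises the surface density of epithelial sodium channels and the ubiquitin ligase that it inhibits.

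Markers of cell types also displayed differences between treated and control animals. The summed signal intensity of 5 interneuron markers in hour 5 was 57900 to 67200 in control animals and 68700 to 73700 in treated animals. Of the 5, 3 (*Gad2*, *Vip* and *Sst*) were higher in hour 5. In hour 1, 0 of these markers were significant, and in hour 9, 1 was higher (log2 fold changes of the 5 from 0.09 to 0.17). The brightest probe of *Scn1a* was lower in all 3 hours. The interneuron sums overlapped in hours 1 and 9. Of 4 endothelial markers the sum was lower without overlap in hours 1 and 5 (8570 to 10700 against 5960 to 7800 and 8670 to 10800 against 6900 to 8590), with *Flt1* lower and *Pecam1* higher. Astrocyte markers also went both ways, with *Aldh1l1* higher (0.57 in hour 1) and *Aqp4* lower (-0.76). The sum of the 5 astrocyte markers in hour 1 was 22200 to 25500 in control animals and 25500 to 27300 in treated animals, so that the groups barely met, and the sums overlapped in hours 5 and 9. Of 5 oligodendrocyte markers, 2 were higher (*Mbp* and *Mobp*) and 2 lower (among them *Mag*) in each hour, and the sums of the groups overlapped in each hour. Of 4 microglia markers, *P2ry12* was lower in all hours and *Cx3cr1* in hour 1, and the sums overlapped. Of 4 thalamus markers, *Tcf7l2* was higher in hour 1 (0.20, adjusted p = 0.045), the hour of the animal described above. The lists of dentate granule cells, CA1 and CA3 pyramidal neurons, oligodendrocyte precursors, choroid plexus and sensory ganglia had 0 or 1 significant members in each hour, and their sums overlapped. The sum of 5 general neuron markers overlapped in hour 1 (162000 to 183000 against 158000 to 179000) and had 0, 2 and 1 significant members in the 3 hours. The part of these shifts in the differences of the channel genes was not tested. Within slides, the direction of the significant genes was the same on each of the 3 slides for 10 of 11 genes in hour 1 (the exception was *Cacna2d1*), 14 of 14 in hour 5 and 9 of 9 in hour 9. These genes were called on the same arrays, which favors a shared direction, so this is no independent check.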

How the data were processed

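Gene expression was measured in hippocampal RNA of 48 mice on 24 two-color Agilent arrays. The authors deposited, for each array, the scanner file, from which median spot intensity and median local background intensity were read for Cy3 and Cy5 before any normalization; control animals were labelled with Cy3 and corticosterone-treated animals with Cy5. A further table that the authors deposited holds log2 ratios of Cy5 over Cy3 (processed values). These lay closest to ratios computed here with normexp, an offset of 50 and loess (median absolute difference 0.00119 over 56605 probes) and were used as an alternative.

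Intensities were analysed in R 4.3.3 with limma 3.58.1 and statmod 1.5.0, after the methods of the study. Background was corrected by normexp (p values with offset 50; fold changes and standard errors with offset 0), followed by loess within and quantile normalization between arrays. Copies of a probe were averaged, and spots marked as outliers were missing. The separate channel test fitted 6 groups over all channels with an intraspot correlation of 0.279, which takes up that the animals of an array share a spot. Benjamini-Hochberg adjustment of p values covered 56605 probes. The value columns of the table were all assigned to a sample. Simulated normalized intensities with known changes were used to test the separate channel fit. The other steps were not tested in this way.

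Symbols came from the RefSeq gene table of GRCm38.p6, matched by transcript accession (34566 probes). The array files name another build, so no gene coordinates are given, and promoter positions are those of the RefSeq table. The members, the partner and marker lists and the tests were chosen with earlier results of these data known. Values per group are given for members significant at all 3 hours or between hours and for the 6 members per hour whose significant change was largest, at a signal intensity of at least 50; values of *Scn3a*, *Cacna2d1*, *Cacna2d3* and *Scnn1b*, dimmer probes, *Cacnb2* and *Cacna1c* were chosen after they were seen.

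Alternatives were offset 0 for p values, offset 50 for fold changes, no background correction, median centring, Aquantile, processed signals from the scanner software, filters on signal intensity and on signals well above background, a test on log ratios, the authors' ratios, slide as a block, each slide left out, outlier spots kept, and the mean over all probes of a gene. Leaving out single arrays (hour 1, replicate 8; hour 5, replicate 7) was added after seeing the data. The number of arrays limits the precision, and p values measure the spread between animals. Values of a few members and partner genes are not reported here, although these genes are part of the counts.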

Additional observations from a re-analysis of the deposited data

Results flagged for a closer look

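In 10 of 84 groups of 8 animals, the highest or lowest animal lay far from the other 7, where chance gives about 1 in 20. The corticosterone-treated animal of replicate 8 in hour 1 accounted for 4 of these, with *Cacna1g* at 1530 (others 923 to 1030), *Cacng2* at 2120 (1490 to 1710), *Cacng3* at 454 (615 to 740) and *Scn8a* at 4710 (6040 to 7230), and its channel was among the 3 farthest from their group over all probes. The summed thalamus markers of this animal were at 10300 (others 5450 to 6270), and their part in these values was not tested. The control animal of replicate 7 in hour 5 had *Cacng2* at 1260 (others 1860 to 2380) and *Cacng7* at 9060 (7410 to 8010). The others were *Scn3b* at 22700 in the control animal of replicate 7 in hour 1 (17000 to 19200), *Cacng7* at 8130 in the corticosterone-treated animal of replicate 8 in hour 9 (9070 to 9760), *Cacna2d2* at 1510 in the control animal of replicate 2 in hour 5 (2210 to 2730) and *Cacna1s* at 157 in the control animal of replicate 5 in hour 9 (85.8 to 115).

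The ratio of *Cacnb2* was above 0 on all 8 arrays of hour 1 and below 0 on all 8 arrays of hour 9, a change of -0.20 with an adjusted p of 0.99 in the separate channel test and of 0.0343 in the test on log ratios (limma).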

How the results depend on the processing

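The 34 calls of corticosterone against control animals rested on 17 genes. Of these calls, 8 were kept under every alternative, those of *Scn3b*, *Cacng5* and *Cacng7* in hours 1 and 5 and of *Cacng2* and *Cacna2d2* in hour 5, 25 lost significance with the same direction under at least 1 alternative, and that of *Scn1a* in hour 1 turned direction under 1 alternative. Median centring, the filter at a signal intensity of 50 (which removes *Scnn1b*), an offset of 50 for fold changes and the outlier spots lost 0 calls, and slide as a block lost 1 (*Scn8a* in hour 9). Leaving out slide 1, 2 or 3, which removes 8 arrays each, lost 16, 13 and 14. Hour 1 had 11 genes, 6 without slide 2, 7 with the mean over all probes of a gene, and 16 both without replicate 8 of hour 1 and with the authors' log2 ratios. Hour 5 had 14 genes, 7 without slide 1 and 6 without slide 3. Hour 9 had 9 genes, 3 without slide 1 and 4 with the mean over all probes. The change of the effect from hour 1 to hour 9 had 0 genes, 1 in the test on log ratios (*Cacnb2*), 1 with the authors' log2 ratios (*Cacnb2*, -0.19) and 1 with the mean over all probes (*Scn3b*). Corticosterone-treated animals had 2 genes from hour 1 to hour 9, 0 without slide 1, 2 or 3, and 1 without replicate 8 of hour 1. With the mean over all probes, *Scn2a* turned to -0.06, -0.06 and -0.09 in hours 1, 5 and 9 and *Scn1a* to 0.0013 and 0.02 in hours 1 and 5. The cause was not tested. Animals that share an array enter the separate channel test through the intraspot correlation, and the test on log ratios pairs them directly, which lost 7 of the 34 calls. Signals under 50 lie close to background, which limits 8 of the genes.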
